A study of Mus musculus with 2 samples.

Results

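The genes described here are 9 symbols that read out or control transcription by cyclic AMP, namely Nr4a1, Nr4a2, Nr4a3, Sik1, Crem, Per1, Atf3, Creb1 and Crtc2. They were chosen by symbol, and all 9 of them were found among the 22441 gene symbols of the count tables. The tables came from mouse hearts of 2 genotypes on the C57/B6 strain, with treatment given as none for both. The first group was wild type and the second AC8 overexpressing, where AC8 is adenylyl cyclase type 8, an enzyme that makes cyclic AMP, and the series title places the overexpression in cardiomyocytes. For each genotype the mice were pooled and cells of 3 sorted fractions were combined in equal numbers: leukocytes (CD45+CD31-), mesenchymal cells (CD45-CD31-) and endothelial cells (CD45-CD31+). Each genotype thus gave 1 droplet library, and cardiomyocytes, the cells in which the enzyme is overexpressed per the title, were not among the sorted fractions. The age of the mice and their number per pool are not given in the sources used here.

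Cyclic AMP activates protein kinase A, which phosphorylates the transcription factor CREB1 on DNA. Coactivators of the CRTC family, CRTC2 among them, then join CREB1, and the complex turns on genes whose promoters hold a cyclic AMP response element. Among the known targets are the orphan nuclear receptors Nr4a1, Nr4a2 and Nr4a3, the clock gene Per1, and a set of brakes on the same pathway: Crem, from which a short repressor is made, Sik1, a kinase that keeps CRTC proteins out of the nucleus, and the phosphodiesterases, which break cyclic AMP down. Atf3 is a transcription factor of the same wider family that many stresses induce. Most of these genes also respond within minutes to growth factors, calcium and the handling of tissue, so their RNA is a mixed readout.

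The unit of measurement was the unique molecular identifier (UMI), 1 per captured RNA molecule. The wild-type library held 5800 cells and the AC8 library 4867, and 3546 and 3578 of them were kept, with medians of 1887.5 and 2328 UMIs per kept cell. Clusters were named "like" a cell type from markers, which gave 11 classes. Every fibroblast-like cluster had 9 of 9 fibroblast markers in at least 10% of its cells, and no cluster took the name of cardiomyocytes. UMIs were summed per class and library and expressed per 1000000 UMIs of that class (CPM). Adcy8, the gene of the overexpressed enzyme, had 0 UMIs in either library's kept cells. Counts of 0 leave room for at most 0.400 CPM (wild type) and 0.314 CPM (AC8), so the gene does not check the genotype labels in these cells. With 1 library per genotype there was no test. All intervals are exact 95% intervals that cover counting error only, not differences between mice, pools or preparations. Ratios are AC8 over wild type within a class, and fewer molecules per cell and fewer expressing cells are told apart only where shares of cells are given.

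The promoters of the 3 Nr4a genes are shown first, beside those of Per1 and Atf3. They run from 250 bases before to 50 bases after the start of transcription, 5′ to 3′ on the strand of the gene. They come from RefSeq on GRCm38.p6, where 6 of the 9 genes were matched and Sik1, Crem and Crtc2 were not. No link of the motifs with the ratios below was tested. The motifs searched, on both strands, were the full cyclic AMP response element, TGACGTCA, and its 5-base end, TGACG or CGTCA, which is part of the full element. Capitals mark the 5-base end.
Nr4a1, chr15:101266596-101266895, plus strand: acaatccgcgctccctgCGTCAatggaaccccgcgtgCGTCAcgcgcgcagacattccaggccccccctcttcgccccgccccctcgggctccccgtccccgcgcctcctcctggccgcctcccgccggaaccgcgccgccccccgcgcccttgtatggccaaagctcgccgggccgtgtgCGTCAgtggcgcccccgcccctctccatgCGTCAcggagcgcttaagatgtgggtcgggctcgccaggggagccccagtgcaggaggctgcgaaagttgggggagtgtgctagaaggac
Nr4a2, chr2:57123954-57124253, minus strand: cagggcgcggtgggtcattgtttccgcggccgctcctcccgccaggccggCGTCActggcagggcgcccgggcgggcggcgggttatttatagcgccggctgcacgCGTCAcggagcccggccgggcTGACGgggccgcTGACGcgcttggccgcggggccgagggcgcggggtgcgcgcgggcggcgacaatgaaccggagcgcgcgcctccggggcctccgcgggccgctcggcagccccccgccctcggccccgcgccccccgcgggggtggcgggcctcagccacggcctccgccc
Nr4a3, chr4:48045055-48045354, plus strand: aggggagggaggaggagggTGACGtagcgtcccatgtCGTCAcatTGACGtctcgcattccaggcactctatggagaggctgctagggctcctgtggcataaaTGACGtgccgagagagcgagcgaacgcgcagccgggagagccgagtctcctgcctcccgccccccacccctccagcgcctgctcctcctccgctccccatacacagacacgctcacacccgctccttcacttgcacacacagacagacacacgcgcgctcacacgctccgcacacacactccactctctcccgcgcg
Per1, chr11:69099902-69100201, plus strand: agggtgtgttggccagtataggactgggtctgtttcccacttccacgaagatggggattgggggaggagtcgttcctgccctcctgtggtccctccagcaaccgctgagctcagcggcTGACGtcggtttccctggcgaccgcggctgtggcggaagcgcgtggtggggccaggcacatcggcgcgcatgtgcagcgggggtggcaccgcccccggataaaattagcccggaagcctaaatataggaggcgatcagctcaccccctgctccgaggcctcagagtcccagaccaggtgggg
Atf3, chr1:191183284-191183583, minus strand: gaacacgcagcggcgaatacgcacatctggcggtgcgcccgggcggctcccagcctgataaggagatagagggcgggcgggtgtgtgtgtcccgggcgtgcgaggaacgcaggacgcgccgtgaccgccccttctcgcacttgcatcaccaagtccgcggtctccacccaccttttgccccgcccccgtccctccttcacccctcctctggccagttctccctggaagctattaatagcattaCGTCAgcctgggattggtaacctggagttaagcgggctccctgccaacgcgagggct
Nr4a1, Nr4a2 and Nr4a3 each held the 5-base end 4 times. In Nr4a1 the matches began 233, 213, 69 and 40 bases before the start, in Nr4a2 200, 144, 123 and 111 bases, and in Nr4a3 231, 213, 205 and 147 bases before it. Per1 has 2 promoters in the table, each with 1 match, and in the promoter shown it began 132 bases before the start. Atf3 had 1 match, 7 bases before the start, and the promoter of Creb1 (chr1:64532554-64532853, plus strand, not shown) had 0. None of the 7 promoters of these genes held the full element. Over all 32851 promoters of the table, 20.8% held the 5-base end, 1.03% held it at least 3 times and 1.79% held the full element. Thus 6 of 7 promoters of the described genes held the end and 3 of 7, those of the Nr4a genes, held it at least 3 times. Of 26 other cyclic AMP response genes, 19 were matched, with 25 promoters, and 15 of the 25 held the end (60.0%). The full element was found in 3 of the 25 (12.0%), those of Areg, Dusp1 and Maff, which are named because they held it. A match is a description of the letters and not a site of binding.

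Levels by class are given for the 9 classes that had 20 or more kept cells per library. Nr4a1, a nuclear receptor that acts without a known natural ligand and is induced by antigen receptor signals in lymphocytes, was at its highest in monocyte-like and B cell-like cells. In wild type it stood at 1921 CPM in the monocyte-like class and 1908 CPM in the B cell-like class, and the intervals of the neighbours overlapped. In AC8 it stood at 2987 CPM in the B cell-like class and 2495 CPM in the monocyte-like class, and those intervals did not overlap. The lowest class in both libraries was endothelial-like, at 192 CPM in wild type and 349 in AC8, below macrophage-like cells at 491 and 492 CPM. Nr4a1 was therefore spread over every class.

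Its relatives Nr4a2 and Nr4a3 had other orders. Nr4a2 was highest in NK cell-like cells, at 851 CPM in wild type and 744 in AC8, followed by mural-like cells, the pericytes and smooth muscle cells of vessels, at 442 and 469 CPM. Its lowest levels in wild type were in macrophage-like (44.5 CPM) and fibroblast-like cells (46.2 CPM), whose intervals overlapped. Nr4a3 was also highest in NK cell-like cells, at 484 CPM in wild type and 372 in AC8. T cell-like cells followed in wild type at 426 CPM, with an overlapping interval, and dendritic cell-like cells in AC8 at 269 CPM, again overlapping. Endothelial-like (14.7 and 27.0 CPM) and macrophage-like cells (24.1 and 21.2 CPM) were at the low end of Nr4a3 in both libraries.

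**Figure D1:**
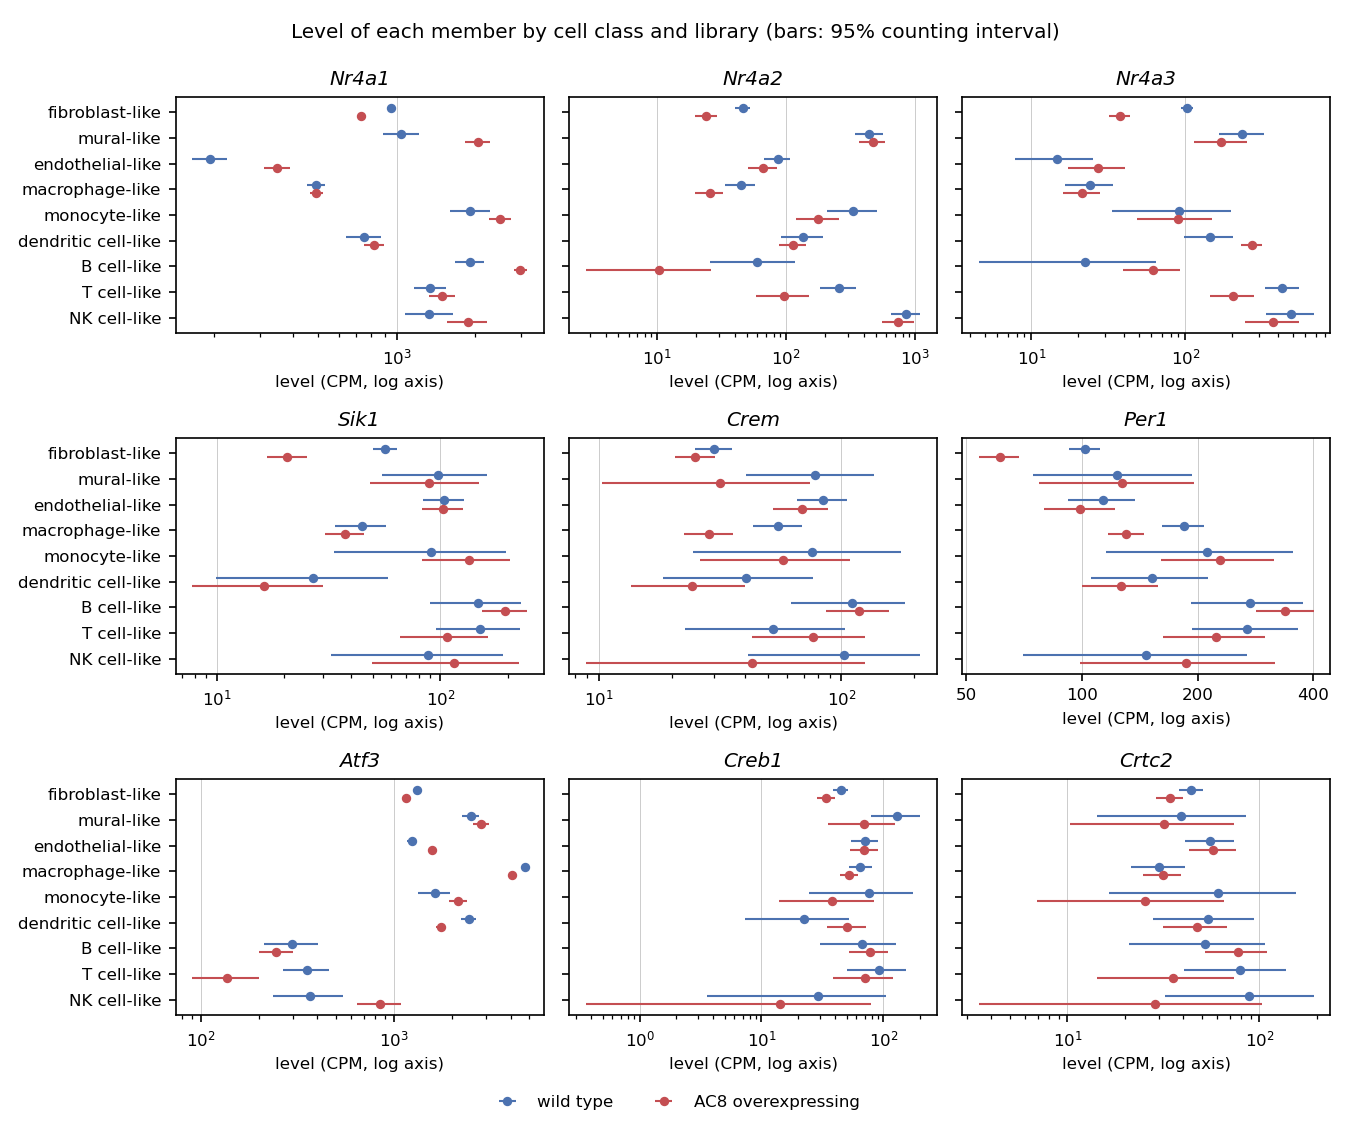
Level of each of the 9 genes (CPM, log axis; the range differs between panels) in 9 cell classes, with wild type in blue and AC8 in red and bars for the 95% counting interval. Nr4a1 was lowest in endothelial-like cells in both libraries, Atf3 was highest in macrophage-like cells in both, and the wild-type point lies to the right of the AC8 point in all 9 panels for fibroblast-like cells.

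Atf3 had the clearest order. Macrophage-like cells held 4744 CPM in wild type and 4052 in AC8, above mural-like cells at 2497 and 2803 CPM, with no overlap of intervals in either library. B cell-like (296 and 246 CPM) and T cell-like cells (354 and 137 CPM) were the lowest classes, and which of them was lowest differed between the libraries. The brakes of the pathway were more even. Sik1 (chromosome 17, 31844250 to 31855804, minus strand, GENCODE vM21 on GRCm38) ran from 26.9 CPM in dendritic cell-like to 151 CPM in T cell-like cells of wild type. In AC8 it ran from 16.2 CPM in dendritic cell-like to 195 CPM in B cell-like cells, and only in AC8 did neighbours separate, mural-like above macrophage-like and macrophage-like above fibroblast-like cells. Crem was highest in B cell-like cells (111 CPM in wild type, 118 in AC8), and every pair of neighbours overlapped in both libraries.

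Per1, a repressor arm of the circadian clock that is also induced acutely by cyclic AMP, was highest in B cell-like cells (274 and 338 CPM) and lowest in fibroblast-like cells (102 and 61.0 CPM). In AC8 the fibroblast-like level lay below that of its neighbour, endothelial-like cells at 99.1 CPM, without overlap, whereas in wild type it overlapped with endothelial-like cells at 113 CPM. Creb1, the transcription factor itself, stayed between 22.4 and 130 CPM in wild type and between 14.3 and 76.9 CPM in AC8. Crtc2, its coactivator (chromosome 3, 90254163 to 90264125, plus strand), ranged from 30.1 to 88.0 CPM (wild type) and from 25.5 to 76.9 CPM in AC8. Neighbouring classes of Crtc2 overlapped throughout, and those of Creb1 separated once, macrophage-like above fibroblast-like cells in wild type.

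Fibroblast-like cells numbered 1907 (wild type) and 1547 (AC8), and in them all 9 genes were lower in the AC8 library. The size differed by gene. Nr4a3 stood at 103 CPM in wild type and 37.4 in AC8, which is 2.75-fold lower (interval 2.29 to 3.30). Sik1 stood at 56.6 and 20.7 CPM, 2.73-fold lower (2.14 to 3.51). These were the largest differences, in a receptor and in the kinase that restrains CRTC2. Nr4a2 stood at 46.2 and 24.1 CPM, 1.92-fold lower (1.51 to 2.45), and Per1 at 102 and 61.0 CPM, 1.67-fold lower (1.43 to 1.95). Nr4a1 and the stress-induced factor Atf3 differed less. Nr4a1 stood at 951 and 728 CPM, 1.31-fold lower (1.25 to 1.37), and Atf3 at 1313 and 1156 CPM, 1.14-fold lower (1.09 to 1.18). Creb1 (44.8 and 34.0 CPM, ratio 0.76, 0.61 to 0.94) and Crtc2 (43.9 and 34.2 CPM, ratio 0.78, 0.63 to 0.97) were close to Nr4a1 in ratio (0.77). Crem, at 29.8 and 25.0 CPM, was the only member of the 9 whose interval held 1 (ratio 0.84, 0.65 to 1.09).

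A gene was counted as lower or higher where log2(CPM + 10) differed by at least 1.5-fold between the libraries, among genes with at least 30 UMIs over both. In fibroblast-like cells 4 of the 9 genes, Nr4a3, Sik1, Nr4a2 and Per1, were lower by that rule, against 2.77% of the 10627 genes measured. None of the 9 was higher, against 0.819% of genes. The median log2 ratio was -0.38 for the 9 genes and -0.05 for all genes, of which 6057 lay below 0. With each cell weighing the same, 2 of the 9 passed, since Nr4a2 and Per1 then fell short of the threshold, at log2 ratios of -0.49 and -0.58. The median UMIs per fibroblast-like cell were 2166 in wild type and 2744 in AC8, and mitochondrial genes took 1.79% and 1.68% of UMIs. The part of this depth difference in the ratios was not tested beyond thinning every cell to 1000 UMIs, after which 3 of the 9 passed and Per1 stood at -0.49.

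**Figure D2:**
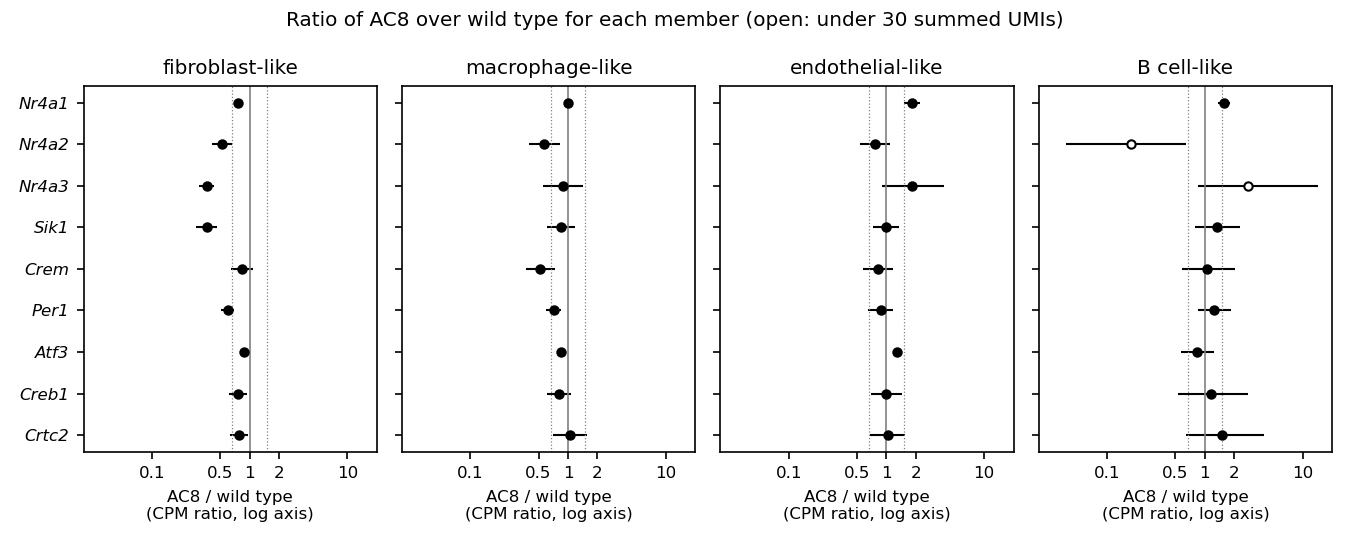
Ratio of CPM, AC8 over wild type (log axis), for each of the 9 genes in the 4 classes with at least 100 cells in each library. Bars are 95% counting intervals, dotted lines mark 1.5-fold, and open points are genes with under 30 summed UMIs. All 9 points lie below 1 in fibroblast-like cells, and Nr4a1 lies above 1.5 in endothelial-like and B cell-like cells.

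The class held 6 clusters, and their mix was not the same in the libraries: the cluster led by Dcn, Clec3b and Htra3 had 814 wild-type and 529 AC8 cells, and that led by Mfap5, Mfap4 and Gsn had 132 and 219. The ratios were therefore taken inside each cluster. Nr4a3 was lower in AC8 in all 6 clusters, with ratios from 0.24 to 0.55 whose intervals all lay below 1. Nr4a1 was lower in all 6, with ratios from 0.63 to 0.87, and its interval held 1 in the cluster led by Gfpt2, Dcn and Vcan. Sik1 had ratios from 0.23 to 0.74 and Nr4a2 from 0.41 to 0.77. The intervals of both held 1 in the cluster led by Clec3b, Mfap5 and Pi16 and in the cluster led by Gfpt2. In each of these 2 genes 1 cluster had under 30 UMIs. Per1 had ratios from 0.43 to 0.70 in 5 clusters and 1.49 in the cluster led by Gfpt2, whose interval held 1. The interval of Per1 also held 1 in the cluster led by Fbln1, Gsn and Dcn (0.48 to 1.002). Atf3 did not keep a direction, with ratios from 0.72 to 1.03.

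The cluster led by Gfpt2, Dcn and Vcan, 101 wild-type and 63 AC8 cells, had the highest levels of the genes that differed most. Nr4a3 stood there at 381 CPM in wild type and 168 in AC8, against 61.6 to 129 CPM in wild type in the other 5 clusters. Sik1 stood at 203 and 112 CPM, against 32.1 to 67.5 CPM in the wild-type cells of the others. Both genes were thus highest in a small cluster, and lower in AC8 there too, although the interval of Sik1 held 1.

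**Figure D3:**
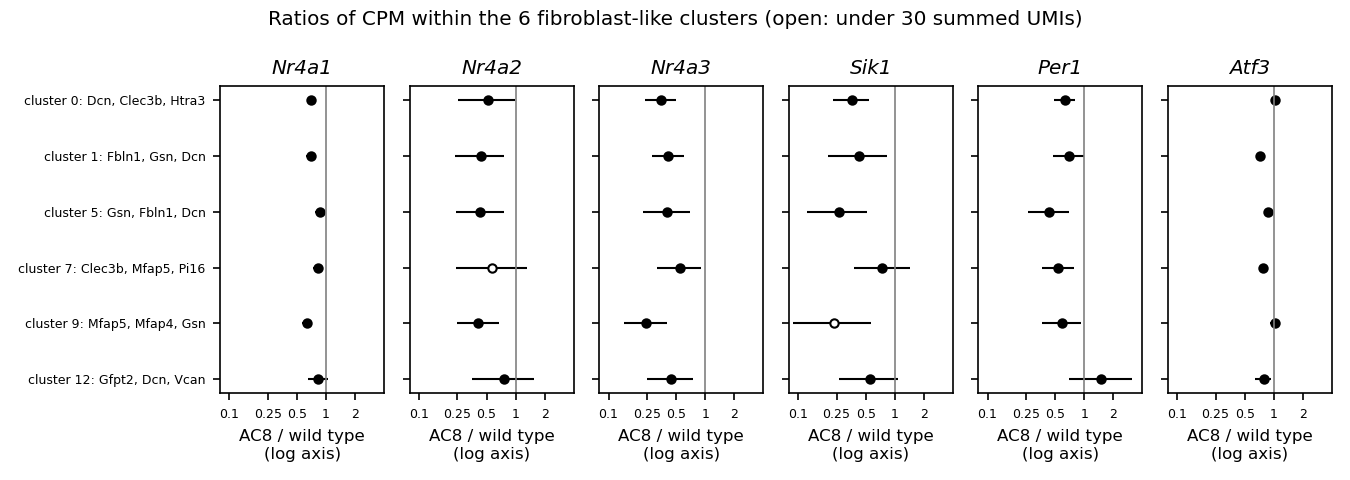
Ratio of CPM, AC8 over wild type (log axis), inside each of the 6 fibroblast-like clusters, named by their number and 3 leading genes, for 6 of the 9 genes. Bars are 95% counting intervals and open points have under 30 summed UMIs. Nr4a1 and Nr4a3 lie below 1 in all 6 clusters, while Atf3 lies on both sides of 1.

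For Nr4a1, Nr4a3 and Sik1 the difference was seen in the share of cells as well as in summed UMIs. After thinning to 1000 UMIs, Nr4a1 was detected in 46.1% of fibroblast-like cells in wild type (43.9 to 48.4) and 34.8% in AC8 (32.4 to 37.2), and before thinning in 62.8% and 53.3%. Nr4a3 was detected in 7.71% and 3.43% of thinned cells (14.6% and 8.21% before), and Sik1 in 5.40% and 2.13% (10.8% and 5.04% before). Atf3 was detected in 48.5% and 46.0% of thinned cells. For Nr4a2 the intervals overlapped, at 3.72% (2.92 to 4.67) and 2.13% (1.47 to 2.98) of thinned cells. They also overlapped before thinning, at 6.45% and 5.24%. Crem was detected in 3.15% and 2.39% of thinned cells (6.40% and 6.59% before). No class of these hearts is known to lack the inducible genes, so no background share from free RNA could be set, and the lowest share of Nr4a1 in a compared class was 13.6%, in wild-type endothelial-like cells.

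Counted over the 7 inducible genes, that is all but Creb1 and Crtc2, 37.1% of fibroblast-like cells of wild type (34.9 to 39.3) and 25.2% of AC8 (23.1 to 27.5) held UMIs of at least 2 of them at 1000 UMIs per cell. Nr4a3 was more often detected in cells that also had Nr4a1. It was found in 11.8% of wild-type fibroblast-like cells that had Nr4a1 (9.76 to 14.1) and in 4.19% of those that did not (3.05 to 5.60). In AC8 these shares were 6.51% (4.57 to 8.93) and 1.78% (1.06 to 2.80). Nr4a2 and Atf3 likewise had shares with and without Nr4a1 whose intervals were apart in both libraries, at 5.23% and 2.43% for Nr4a2 and 56.8% and 41.3% for Atf3 in wild type. For Per1 the intervals were apart in wild type (11.1% and 7.30%) and overlapped in AC8 (7.06% and 5.75%). Those of Sik1 overlapped in both libraries (6.36% and 4.58% in wild type, 3.16% and 1.59% in AC8), as did those of Crem (3.41% and 2.92%, then 2.23% and 2.48%). Cells of 1 library share their pool and preparation, so these shares describe the libraries. The shares were not taken inside the fibroblast-like clusters, and the part of the cluster mix was not tested.

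**Figure D4:**
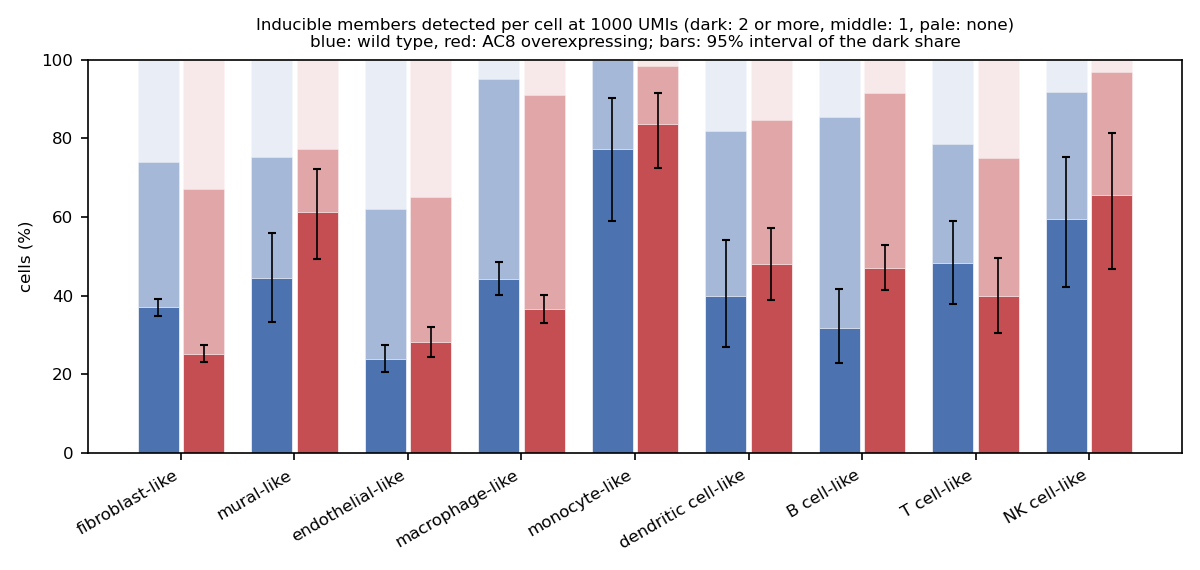
Share of cells (%) with UMIs of 2 or more (dark), 1 (middle) or none (pale) of the 7 inducible genes after thinning to 1000 UMIs per cell, in 9 classes, with wild type in blue and AC8 in red and bars for the 95% interval of the dark share. The dark share is smaller in AC8 in fibroblast-like (37.1% and 25.2%) and macrophage-like cells (44.4% and 36.6%) and larger in B cell-like cells (31.7% and 47.1%).

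Macrophage-like cells numbered 586 (wild type) and 730 (AC8), and in them the repressor Crem and the receptor Nr4a2 differed most. Crem stood at 55.0 CPM in wild type and 28.6 in AC8, 1.92-fold lower (1.37 to 2.69). Nr4a2 stood at 44.5 and 25.5 CPM, 1.74-fold lower (1.21 to 2.52). Per1 stood at 184 and 131 CPM, a ratio of 0.71 (0.60 to 0.84), and Atf3 at a ratio of 0.85 (0.83 to 0.88). By the 1.5-fold rule 2 of 9 genes were lower, against 7.01% of 8344 genes, and 0 were higher, against 5.60%. Nr4a1 was level, at 491 and 492 CPM (ratio 1.003, 0.91 to 1.10), and the intervals of Nr4a3, Sik1, Creb1 and Crtc2 held 1. The median log2 ratio was -0.23 for the 9 genes and -0.03 for all genes.

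The macrophage-like values depended on which cells were taken. A cluster led by Spp1 that also had Gpnmb among its leading genes, both known from lipid-laden macrophages, had 14 wild-type and 156 AC8 cells, and without it the log2 ratio of Nr4a1 was -0.26. Within the cluster marked by Lyve1 the ratio of Nr4a1 was 1.14 (0.94 to 1.37), and within the cluster led by C1qa, C1qc and C1qb, 251 and 228 cells, it was 0.68 (0.58 to 0.80). The ratio of Crem was 0.42 (0.24 to 0.72) inside the Lyve1 cluster and 0.65 (0.33 to 1.27) inside the C1qa cluster, where the interval held 1. In the same order, Per1 had ratios of 0.91 (0.71 to 1.16) and 0.80 (0.60 to 1.08), and both intervals held 1. So did those of Nr4a2, at ratios of 0.73 and 0.70. Atf3 had ratios of 0.94 (0.90 to 0.99) and 0.91 (0.86 to 0.96), nearer to 1 than in the class. Nr4a2 turned to a log2 ratio of 0.07 when all deposited cells were taken, so its direction in this class was not stable. Macrophage-like cells of AC8 were also deeper, with median UMIs of 3035 against 1991.

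Endothelial-like cells, of which wild type gave 602 and AC8 566, had higher Nr4a1 and Atf3 in AC8, opposite to fibroblast-like cells, a contrast between classes that was not tested. Nr4a1, which was lowest in this class, stood at 192 CPM in wild type and 349 in AC8, a ratio of 1.81 (1.499 to 2.20). Atf3 stood at 1238 and 1574 CPM, a ratio of 1.27 (1.17 to 1.38). Nr4a3 had the ratio 1.84, but on few UMIs, at 14.7 and 27.0 CPM, and its interval ran from 0.90 to 3.93. The pathway brakes were near 1 here. Sik1 stood at 104 and 102 CPM (ratio 0.98, 0.73 to 1.33) and Crem at 83.8 and 68.7 CPM (ratio 0.82, 0.57 to 1.17), and the intervals of Nr4a2, Per1, Creb1 and Crtc2 also held 1. By the 1.5-fold rule 1 of 9 genes, Nr4a1, was higher, against 4.44% of 7188 genes, and 0 were lower, against 5.45%. The medians were -0.01 for the 9 genes and -0.01 for all genes.

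Nr4a1 was detected in 13.6% of thinned endothelial-like cells of wild type (11.0 to 16.6) and 23.7% of AC8 (20.2 to 27.4), and before thinning in 18.3% and 29.2%, so more AC8 cells held it. In both libraries about the same depth was reached, with medians of 1302 and 1370.5 UMIs. Different clusters held most of the class: the cluster led by Fabp4, Gpihbp1 and Aqp1 had 379 wild-type and 230 AC8 cells, and that led by Depp1, Fabp4 and Egfl7 had 223 and 336. Inside them the ratio of Nr4a1 was 1.36 (0.98 to 1.88) and 1.71 (1.33 to 2.22). The ratio of Atf3 was 1.04 (0.91 to 1.20) and 1.10 (0.99 to 1.22), so the class ratio of Atf3 was not seen inside either cluster beyond counting error. Markers of other types differed in this class too. The summed level of 10 macrophage markers was 214 CPM in wild type and 307 in AC8, with 7 of 10 higher and none at 0, where macrophage-like cells themselves held 29710 and 36013 CPM. The summed level of 5 erythroid markers was 2613 and 710 CPM, with 0 of 5 higher. Their part in the ratios was not tested.

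B cell-like cells numbered 104 (wild type) and 297 (AC8). Nr4a1 stood at 1908 CPM in wild type and 2987 in AC8, a ratio of 1.57 (1.37 to 1.80). It was detected in 68.3% of thinned cells of wild type (58.4 to 77.1) and 84.5% of AC8 (79.9 to 88.4), and before thinning in 72.1% and 87.9%. The other measured genes had wide intervals that held 1: Sik1 at 148 and 195 CPM (ratio 1.32), Per1 at 274 and 338 CPM (1.24), Crtc2 (1.49), Creb1 (1.16), Crem (1.06) and Atf3 (0.83). Of the 9 genes 7 had at least 30 UMIs, 1 of the 7 was higher, against 10.0% of 2829 genes, and 0 were lower, against 11.5%, so these shares were near the background. Nr4a2 had 8 UMIs in wild type and 4 in AC8 and Nr4a3 had 3 and 24. Atf3 rested on 13 wild-type and 39 AC8 cells, with up to 12 UMIs in 1 cell, and its log2 ratio turned from -0.26 to 1.02 without doublet removal. Endothelial markers in this class summed to 1109 CPM in wild type and 346 in AC8, with 0 of 11 higher, and their part was not tested.

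Smaller classes were too few in cells for the comparison over genes, and their values are given as levels. In mural-like cells, 81 and 75, Nr4a1 stood at 1040 CPM in wild type and 2054 in AC8, a ratio of 1.97 (1.63 to 2.40), while Nr4a2 (1.06) and Nr4a3 (0.73) had intervals that held 1. Endothelial markers in this class summed to 6743 CPM in wild type and 2879 in AC8, with 10 of 11 lower and none at 0, and fibroblast markers to 2211 and 1027 CPM, with 9 of 9 lower. At a resolution of 1.6 the class split into a cluster led by Acta2, with 48 and 65 cells, and one led by Rgs5 and Kcnj8, with 41 and 13. The ratio of Nr4a1 was 1.56 (1.28 to 1.90) in the Acta2 cluster and 2.66 (1.12 to 6.19) in the Rgs5 cluster, on 14 and 12 UMIs. The ratio of Nr4a3 was 0.56 (0.33 to 0.95) in the Acta2 cluster. The part of the endothelial and fibroblast markers was not tested. In T cell-like cells, 93 and 108, Nr4a1 was nearly level (ratio 1.11, 0.93 to 1.33), and 3 inducible genes were lower: Atf3 at 354 and 137 CPM, Nr4a2 at 256 and 96.5 CPM and Nr4a3 at 426 and 203 CPM. The share of T cell-like cells with Atf3 was not lower (12.9% in wild type, 14.8% in AC8; 11.8% and 10.2% after thinning), and 1 wild-type cell held 17 of its 54 UMIs. Without the cell with the most UMIs in each library the ratio of Atf3 was 0.45 (0.25 to 0.79). Macrophage markers in this class summed to 453 and 193 CPM, with 8 of 10 lower and 1 and 2 of them at 0, and their part was not tested. Dendritic cell-like cells, 55 and 125, had Nr4a3 at 144 and 269 CPM, a ratio of 1.88 (1.28 to 2.83), and Atf3 at a ratio of 0.72 (0.65 to 0.80). The leading genes of that cluster included Cd209a, Ccl22 and Ccl17, and also Mki67 and Top2a, genes of dividing cells. At a higher minimum of UMIs and genes per cell, the dendritic cell-like cells fell into separate clusters. The cluster led by Cd209a had 35 wild-type and 80 AC8 cells, and that led by Ccl22 and Ccr7 had 1 and 12. The ratios were not taken inside these clusters, and the part of their mix was not tested. In NK cell-like cells, 37 and 32, Atf3 stood at 367 and 844 CPM, a ratio of 2.30 (1.42 to 3.84). There 1 AC8 cell held 24 of 59 UMIs, and without the top cell of each library the ratio was 2.12 (1.15 to 4.03). Atf3 was found in 16.2% and 31.3% of NK cell-like cells, but after thinning in 13.5% and 12.5%. Fibroblast markers in this class summed to 264 CPM in wild type and 4151 in AC8, with 8 of 9 higher and 5 and 1 of them at 0, and macrophage markers to 4576 and 6498 CPM, with 8 of 10 higher and none at 0. Their part was not tested. The ratio of Nr4a1 in NK cell-like cells was 1.40 (1.07 to 1.86). In monocyte-like cells, 31 and 67, the ratio of Nr4a1 was 1.30 (1.06 to 1.599). Atf3 had a ratio of 1.33 there (1.06 to 1.66) and Nr4a2 of 0.54 (0.30 to 0.98). Monocyte markers in this class summed to 5021 and 3042 CPM, with 6 of 8 lower and none at 0. Endothelial markers summed to 953 and 426 CPM, with 8 of 11 lower and 1 and 2 of them at 0. The part of these markers was not tested. Summed over all kept cells, the opposite ratios met: Nr4a1 stood at 809 and 807 CPM (ratio 0.997, 0.96 to 1.03), while Nr4a3 (0.63, 0.56 to 0.71), Nr4a2 (0.67, 0.59 to 0.76) and Sik1 (0.71, 0.62 to 0.81) stayed lower. The summed values also move with the share of each class in a library.

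The other genes of the pathway were described as lists that share no gene with the 9. Of 26 other cyclic AMP response genes, 22 were measured in fibroblast-like cells, and 7 of the 22 were lower and 0 higher by the 1.5-fold rule, with a median log2 ratio of -0.40. Among them were Pde10a (24.6 and 6.75 CPM), a phosphodiesterase, Trib1 (65.7 and 31.5 CPM), Ptgs2 (202 and 116 CPM), the inducible enzyme of prostaglandin synthesis, and Egr1 (4657 and 2893 CPM), an immediate-early transcription factor. In macrophage-like cells 2 of 20 were lower and 4 higher, with a median of 0.10. The 4 were the growth factor Areg (21.9 and 63.0 CPM), Ptgs2 (17.3 and 51.0 CPM), Gem (8.29 and 21.6 CPM) and Rgs1 (685 and 1148 CPM). The macrophage-like values of this and the following lists were not taken inside clusters. The cluster led by Spp1 had 14 wild-type and 156 AC8 cells, and its part in these values was not tested. In endothelial-like cells 0 of 16 were lower and 5 higher, with a median of 0.34, among them Gadd45b (110 and 234 CPM), Maff (37.4 and 65.3 CPM) and Ier2 (1216 and 1888 CPM). In B cell-like cells 1 of 14 was lower, Irs2, and 1 higher, Junb, shares below the 11.5% and 10.0% of all genes in that class. For these and the following lists, the shares of all genes lower and higher were 2.77% and 0.819% in fibroblast-like, 7.01% and 5.60% in macrophage-like and 5.45% and 4.44% in endothelial-like cells.

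**Figure D5:**
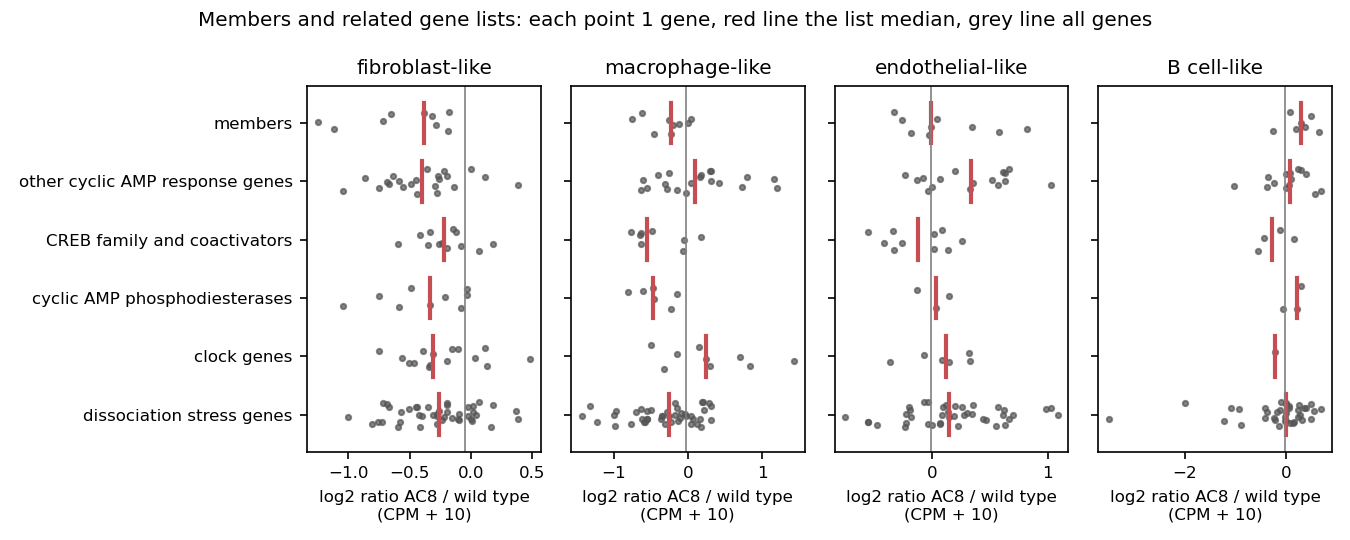
Log2 ratio of CPM + 10, AC8 over wild type, for each measured gene (points, spread vertically for visibility) of the 9 described genes ("members") and 5 related lists in 4 classes. Red lines are list medians and the grey line is the median of all genes. The other cyclic AMP response genes have a median of -0.40 in fibroblast-like and 0.34 in endothelial-like cells, and the dissociation stress genes of -0.26 and 0.15.

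Of the phosphodiesterases, 3 of 9 measured were lower in AC8 fibroblast-like cells by the 1.5-fold rule: Pde10a, Pde3a (77.3 and 41.9 CPM) and Pde4d (20.2 and 10.1 CPM). The other 6 did not pass, with log2 ratios below 0, as were those of 6057 of the 10627 genes. The list shares 3 genes with the cyclic AMP response genes, Pde4b, Pde4d and Pde10a, so Pde4d and Pde10a are counted in both. In macrophage-like cells 2 of 6 were lower, Pde3b (141 and 75.7 CPM) and Pde4b (336 and 216 CPM). Among CREB relatives and coactivators, 1 of 12 was lower in fibroblast-like cells, the acetyltransferase Ep300 (50.9 and 30.4 CPM). In macrophage-like cells 4 of 8 were lower: Crebrf, Crebbp, Crtc3 and Creb5, of which Crebbp, the partner enzyme of CREB1, stood at 110 and 66.5 CPM. Of the kinases around Sik1, its relative Sik2 was lower in fibroblast-like cells (42.5 and 22.7 CPM), 1 of 10 measured. Of the receptors that raise cyclic AMP, 0 of 7 passed in fibroblast-like cells, and Calcrl, a receptor of the adrenomedullin family, was lower in endothelial-like cells (137 and 76.6 CPM), 1 of 4.

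Per1 was set beside 16 other clock genes. In fibroblast-like cells 1 of 15 measured was lower, the repressor Bhlhe40 at 359 CPM in wild type and 210 in AC8. In macrophage-like cells 3 of 9 were higher, and Bhlhe40 was among them, at 26.4 and 88.1 CPM. Atf3 was set beside a list of 12 stress genes that includes those of the integrated stress response, which is known to induce Atf3. Not every gene on the list is specific to that response. In fibroblast-like cells 1 of 10 was lower, the chaperone Hspa5 (1642 and 1035 CPM), and Atf4 stood at 212 and 153 CPM. In macrophage-like cells 2 of 9 were lower, Ddit3 and Herpud1. No gene of this list passed in endothelial-like or B cell-like cells, with 7 and 4 measured.

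A list of 43 genes known to respond to tissue dissociation also differed between the libraries. In fibroblast-like cells 8 of 43 were lower and 0 higher (median -0.26), and their summed level was 71276 CPM in wild type and 61735 in AC8. In macrophage-like cells 11 of 43 were lower (median -0.26; 90049 and 75225 CPM), led by heat shock genes such as Hsph1 and Hspa1b. In endothelial-like cells 8 of 41 were higher and 1 lower (median 0.15; 58782 and 66611 CPM). In B cell-like cells 6 of 37 were lower and 1 higher, with a median of 0.00. The largest differences there, among genes at 20 CPM or more, were in heat shock genes that were lower in AC8. These were Hspa1a (451 and 30.8 CPM), Hspa1b (163 and 33.3 CPM), Hsph1 (140 and 53.8 CPM) and Hspe1 (355 and 162 CPM). The list shares 10 genes with the other cyclic AMP response genes, 38.5% of those and 23.3% of its own. Without the shared genes, 5 of 12 cyclic AMP response genes (median -0.53) and 6 of 33 dissociation genes (median -0.23) were lower in fibroblast-like cells. In macrophage-like cells the same subsets had medians on opposite sides of 0, with 1 of 10 cyclic AMP response genes lower and 4 higher (median 0.36) and 10 of 33 dissociation genes lower and 0 higher (median -0.35). In endothelial-like cells 1 of 6 and 4 of 31 were higher (medians 0.34 and 0.14), beside a median of -0.01 for the 9 genes. The libraries were prepared once each, so preparation and genotype cannot be told apart, and the part of tissue handling in the ratios was not tested.

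Genes whose levels followed those of the 9 most closely over the 9 classes and 2 libraries were found among 8519 genes, by Pearson's r of log2(CPM + 10) over 18 points. The points of 1 library share its preparation, and r is given as a description. Nr4a1 was followed by Sorl1 (0.80), Stk24 (0.79) and Cdk2ap2 (0.77). Atf3 was followed by Rab31 (0.91), Zfp36 (0.89) and Cdkn1a (0.88), of which Zfp36 is also on the dissociation list. Sik1 and Crem shared their closest gene, the transcription factor Mef2d (0.89 and 0.91), and Per1 was followed by Stk17b (0.91), Fam107b (0.90) and Arhgap4 (0.88). None of the 9 was among the 3 closest genes of Nr4a1, Atf3, Sik1, Crem or Per1, and the other 4 were not searched.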

How the data were processed

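The authors deposited raw counts of UMIs for each gene and cell, made with Cell Ranger, per the labels. The genome build named is mm10, per the submitters' processing notes. The version of Cell Ranger is not given in the sources used. Cell barcodes are running numbers in the deposited files, so barcodes that the libraries share could not be counted.

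Cells were taken with 1000 or more UMIs, 500 or more genes and no more than 10% mitochondrial UMIs. The top doublet scores were then removed, 0.8% per 1000 deposited cells (173 in wild type and 145 in AC8). Counts per cell were scaled to a total of 10000 and log-transformed. The 2000 most variable genes, without the 137 genes of the lists, gave 30 principal components over both libraries, and a graph of 15 neighbours was partitioned with the Leiden algorithm at resolution 1 into 21 clusters. A cluster took the type whose markers stood highest in it. At least 3 markers of a type had to be found in at least 10% of the cells, and no type of another lineage could score 0.75 times as high or have more markers among the 10 leading genes. This scoring rule was set after the data were seen. Shares of cells were compared after thinning each cell to 1000 UMIs.

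Classes with 100 or more kept cells per library were compared, those with at least 20 were given as levels, and Schwann-like and neutrophil-like cells were left out. Genes needed 30 summed UMIs, and log2 ratios used a pseudocount of 10 CPM. Intervals were exact at 95% (Poisson for CPM, binomial for ratios, Clopper-Pearson for shares). Those of ratios were run on simulated Poisson counts, which follow the model that the intervals assume. That check could not cover UMIs that gather in few cells. The described genes and the lists were chosen with earlier results of these data known. All 9 genes were always named, as were at most 4 genes per list and class with the largest ratios among those at 20 CPM or more, and the 3 genes closest in pattern to 5 of the 9. The alternatives tried were other limits on cells, clustering, doublet removal, scaling, pseudocount, weighting of cells, thinning, count minimum and fold threshold. The clustering used leidenalg 0.10.2, igraph 0.11.9 and scikit-learn 1.9.0, the counts and intervals scipy 1.17.1, numpy 2.4.6 and pandas 2.3.3, and the figures matplotlib 3.10.9, under Python 3.11.15.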

Additional observations from a re-analysis of the deposited data

Results flagged for a closer look

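Nr4a1 and Atf3 had opposite directions in different cell classes, with counting intervals on opposite sides of 1. The ratio of Nr4a1, AC8 over wild type, was 0.766 for the fibroblast-like class, 1.81 for the endothelial-like class and 1.57 for the B cell-like class. The ratio of Atf3 was 0.880 for the fibroblast-like class, 0.854 for the macrophage-like class and 1.27 for the endothelial-like class. Inside the endothelial-like clusters the ratio of Atf3 was 1.04 (0.91 to 1.20) and 1.10 (0.99 to 1.22). Inside the fibroblast-like clusters it ran from 0.72 to 1.03, so its class ratios were not held in every cluster. In the macrophage-like clusters marked by Lyve1 and led by C1qa it was 0.94 and 0.91. The ratio of Nr4a1 was 1.36 (0.98 to 1.88) and 1.71 (1.33 to 2.22) inside the endothelial-like clusters. Inside the fibroblast-like clusters it ran from 0.63 to 0.87, and its interval held 1 in the cluster led by Gfpt2. Each side of each ratio is 1 library, so the difference between classes was not tested.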

How the results depend on the processing

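Over the 4 compared classes, each ratio was recomputed under every alternative that could be run, which gave 442 values. Of these, 422 stayed within the counting interval of the reported ratio and 20 lay beyond it. The sign turned in 32 values, 24 within the interval and 8 beyond it. Of the ratios past 1.5-fold, 1 turned: Nr4a2 in macrophage-like cells, at a log2 ratio of 0.069 over all deposited cells. The other 7 beyond the interval were ratios under 1.5-fold. In B cell-like cells Atf3 (-0.26) turned to 0.77 over all deposited cells, 1.02 without doublet removal, 0.94 with list genes allowed for clustering and 0.56 without the 1% of cells with the most UMIs, and Sik1 (0.38) turned to -0.33 at a minimum of 2000 UMIs and 1000 genes. In macrophage-like cells Nr4a1 (0.005) turned to -0.15 with each cell weighing the same and to -0.26 without the Spp1 and Gpnmb cluster. No value of fibroblast-like cells turned. All 108 values of endothelial-like cells stayed within their intervals, and 10 of them turned sign.

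The number of the 9 genes counted as lower in fibroblast-like cells went from 4 to 2 with each cell weighing the same, to 3 after thinning to 1000 UMIs, to 3 without the 1% of cells with the most UMIs of the gene and to 2 at a fold threshold of 2. In macrophage-like cells the number lower went from 2 to 1 over all deposited cells, 1 at a minimum of 2000 UMIs and 1000 genes, 1 without doublet removal, 1 with each cell weighing the same, 1 without the 1% of cells with the most UMIs of the gene, and 0 at a fold threshold of 2. In endothelial-like cells the number higher went from 1 to 2 at a resolution of 1.6, 2 with a pseudocount of 1 CPM, 2 with median-of-ratios scaling, 2 without ribosomal and mitochondrial genes in the total, and 0 at a fold threshold of 2. In B cell-like cells the number higher went from 1 to 3 over all deposited cells, 2 without doublet removal, 2 with each cell weighing the same, 2 at a minimum of 10 summed UMIs, 2 without the 1% of cells with the most UMIs and 0 at a fold threshold of 2. With the genes of the lists allowed for clustering, an alternative chosen after seeing the data, it was 2. The number lower there went from 0 to 1 at a minimum of 10 summed UMIs. The cause was not tested, beyond the stricter or looser limits that the fold threshold and the count minimum set by construction.

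The values without the top cell in the smaller classes and those inside the finer mural-like clusters were also chosen after seeing the data. Endothelial-like cells gave no value at a minimum of 2000 UMIs and 1000 genes, because their cluster then took no name. Another scaling moved the median of all genes by at most 0.08 on the log2 scale. Few UMIs limit Nr4a2 and Nr4a3 in the B cell-like class, with 12 and 27 over both libraries. No paired analysis was possible because each genotype had 1 library.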

Other observations

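Among the 9 classes, mural-like cells had the highest summed level of the kinase list in both libraries, at 1398 CPM (wild type) and 1630 CPM (AC8). That list held Sik2, Sik3, Stk11 and genes of protein kinase A and its inhibitors, but not Sik1. Mural-like cells were also highest in both libraries for cyclic AMP phosphodiesterases, at 1203 and 1224 CPM. Fibroblast-like cells held 447 and 301 CPM of the phosphodiesterases. Receptors that raise cyclic AMP summed to 378 and 326 CPM in macrophage-like cells and to 148 and 132 CPM in fibroblast-like cells. These sums are levels of 1 library each and carry no test.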
